A study of Homo sapiens with 11 samples.

Results

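Of the 3560 estrogen receptor (ER) sites called in estradiol-treated Ishikawa cells, a line from a human endometrial adenocarcinoma, 1271 (35.7%) were estradiol-alone and free of the glucocorticoid receptor (GR). These sites, the members of the set described here, were chosen by the authors' peak calls: they are peaks of the estradiol ER list that shared no base with a peak of the combination ER list, the dexamethasone GR list or the combination GR list. The treatments were 100 nM dexamethasone with 10 nM estradiol (the combination), 10 nM estradiol, 100 nM dexamethasone, and the vehicle DMSO, in cells kept beforehand in phenol red-free medium with charcoal-treated serum. ER and GR were profiled by chromatin immunoprecipitation and sequencing after 1 h, and histone H3 acetylated at lysine 27 (H3K27ac) after 8 h. Each treatment and target is 1 library, so no difference below has a replicate check, no p-value is given, and the 95% intervals (exact binomial for shares, from order statistics for medians, by normal approximation for differences) are over sites and cover counting error only. ER and GR lists of vehicle-treated cells were not analysed here, so a site called with estradiol is not shown to have been free of ER before treatment. The identity of the cell line was not checked against markers, since peak lists hold no expression.

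ER and GR are nuclear receptors that bind DNA as transcription factors when estradiol or a glucocorticoid such as dexamethasone occupies them. Estrogen drives growth of the endometrial lining, and glucocorticoid signalling can oppose parts of the estrogen response in the uterus. H3K27ac marks active promoters and enhancers, so its presence at a receptor site tells whether the site lies in chromatin of that kind.

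The membership rule rests on peak calls, and most of its members were weak sites. Strength here is the authors' −log10 q for each peak within the estradiol ER list. The 1271 sites had a median −log10 q of 16.1 (lowest 6.45, highest 54.4). The 1487 sites also called for ER with the combination and never for GR (kept, GR-free sites) had a median of 33.0 (lowest 6.61, highest 128). The median fold enrichment over control was 11.2 at the estradiol-alone, GR-free sites and 17.5 at kept, GR-free sites. The median peak width was 119 bp at the estradiol-alone, GR-free sites and 177 bp at kept, GR-free sites. Because calls chose the sites, these values describe the choice and are no finding.

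With the estradiol ER list divided into 4 strength bands of near-equal size, 628 of the 871 sites of the weakest band (72.1%, 69.0 to 75.1) were estradiol-alone and GR-free. The shares were 472 of 912 (51.8%, 48.5 to 55.0) in the second band and 161 of 889 (18.1%, 15.6 to 20.8) in the third. In the strongest band the count was 10 of 888 (1.13%, 0.541 to 2.06). The set therefore sits almost wholly in the weaker bands, with 86.5% of it in the weakest pair. With the estradiol ER list shortened by −log10 q to the length of the combination list, 446 sites met the rule. The ER libraries had 8508828 usable tags with estradiol and 7625049 with the combination, and estimated fragment lengths of 90 and 121 bp in the same order. The part that these played in the calls was not tested.

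**Figure D1:**
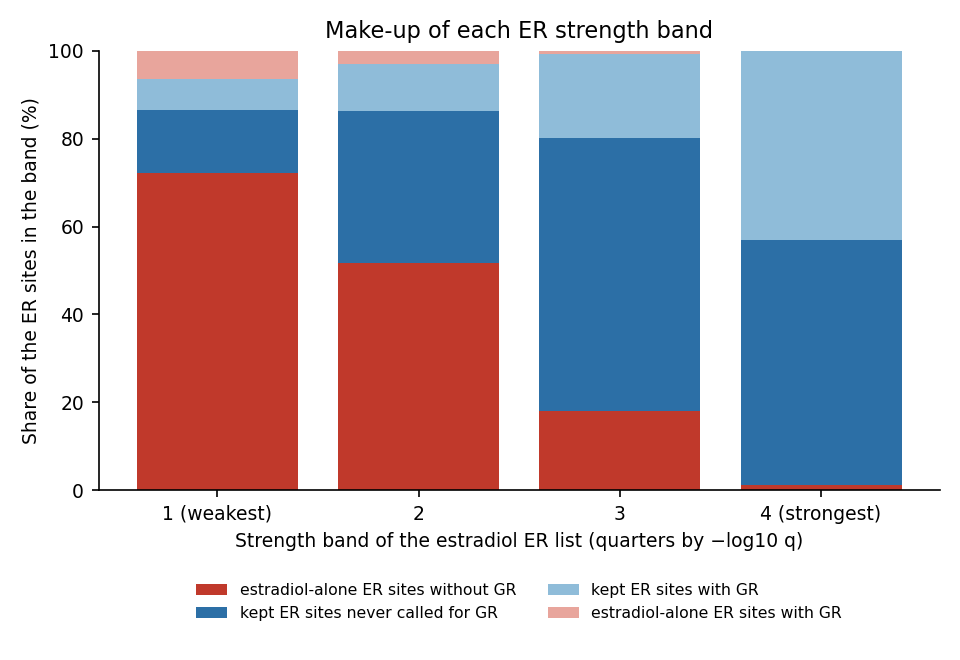
Share (%) of the ER sites in each strength band of the estradiol ER list (x axis, bands by −log10 q from weakest to strongest) that belongs to each of 4 classes, shown as stacked bars. Estradiol-alone, GR-free sites make up 72.1% of the weakest band and 1.13% of the strongest.

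The 5 strongest of these sites lay between 17.7 and 2510 kb from a kept ER site, meaning an estradiol ER site also called for ER with the combination. All coordinates are hg19. The site at chr10:4750548-4750697 ranked 577 of 3560 with a fold enrichment of 25.5, and its nearest kept ER site was 45.2 kb away. The next were chr19:50073946-50074086 (rank 690, fold enrichment 24.3, 597 kb from a kept site) and chr15:30115347-30115502 (rank 736, fold enrichment 24.6, 1393 kb). They were followed by chr15:65519808-65519932 (rank 753, fold enrichment 24.0, 17.7 kb) and chr16:48439557-48439701 (rank 764, fold enrichment 24.1, 2510 kb). None of these 5 sites overlapped an H3K27ac peak in any of the 4 lists. At the other end, the weakest members were chr12:125110829-125110988 (fold enrichment 6.84), chr2:241309639-241309798 (5.16) and chr5:55964995-55965111 (5.05). Of these weakest 3, the sites on chromosomes 2 and 5 lay in H3K27ac with estradiol and with the combination, in neither case with dexamethasone or vehicle.

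The border of the rule is a single shared base, and few sites lay close to it. The member nearest to a combination ER peak, chr19:41427398-41427545, was separated from it by 2 bases, and the next, chr6:113913776-113913875 and chr13:110664548-110664637, by 19 and 34 bases. Just outside the rule, the sites with the least overlap were chr15:33360930-33361097, chr3:189560655-189560782 and chr4:158381075-158381171, which shared 19, 22 and 44 bases with a combination ER peak. Of the 1271 members, 34 lay within 200 bp of a combination ER peak and 120 within 1000 bp. Counting receptor peaks within 1 kb as shared left 1133 sites, and asking for summits within 100 bp gave 1312.

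GR took a small part in the rule. Of the 1360 estradiol ER sites without a combination ER call, 89 were left out for a GR call: 46 with dexamethasone only, 13 with the combination only and 30 with both. Since the rule leaves out overlaps with GR peaks, distances from members to GR sites partly follow from it and are given as a description. The median distance was 317 kb to the nearest dexamethasone GR site and 282 kb to the nearest combination GR site.

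H3K27ac overlapped a minority of the estradiol-alone, GR-free sites under every treatment. With estradiol 529 of the 1271 (41.6%, 38.9 to 44.4) overlapped an H3K27ac peak, against 50.6% of all 3560 estradiol ER sites. With the combination the count was 464 (36.5%, 33.9 to 39.2; all ER sites 46.5%). With dexamethasone it was 254 (19.98%, 17.8 to 22.3; all ER sites 27.5%), and with vehicle 418 (32.9%, 30.3 to 35.5; all ER sites 36.8%). The order of the treatments, with estradiol highest, then the combination, then vehicle and dexamethasone lowest, was the same as over all ER sites. The lengths of the H3K27ac lists ran in nearly that order, with 23888 peaks for estradiol, 20873 for the combination, 15192 for dexamethasone and 21120 for vehicle. The dexamethasone library also had the most duplicate tags (33%, against 18% to 22% in the other 3). Usable tags numbered 10852521 with estradiol, 9657258 with the combination, 9034395 with dexamethasone and 18508574 with vehicle. The part of these library differences in the shares, and in the comparisons with vehicle below, was not tested. Shortened to the same length, the lists gave 37.1% for estradiol, 33.7% for the combination, 19.98% for dexamethasone and 30.1% for vehicle, the same order.

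Set beside kept, GR-free sites, the shares at estradiol-alone, GR-free sites were lower in 3 lists and higher in the vehicle list, and the interval of the difference left out 0 for the estradiol and combination lists. At kept, GR-free sites the estradiol list gave 46.9% (44.4 to 49.5), the combination list 41.3% (38.8 to 43.8), the dexamethasone list 22.7% (20.6 to 24.9) and the vehicle list 30.9% (28.5 to 33.3). The difference, estradiol-alone minus kept, was −5.32 points (−9.03 to −1.61) in the estradiol list, −4.78 (−8.43 to −1.14) in the combination list, −2.68 (−5.74 to 0.38) in the dexamethasone list and 2.02 (−1.47 to 5.51) in the vehicle list.

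**Figure D2:**
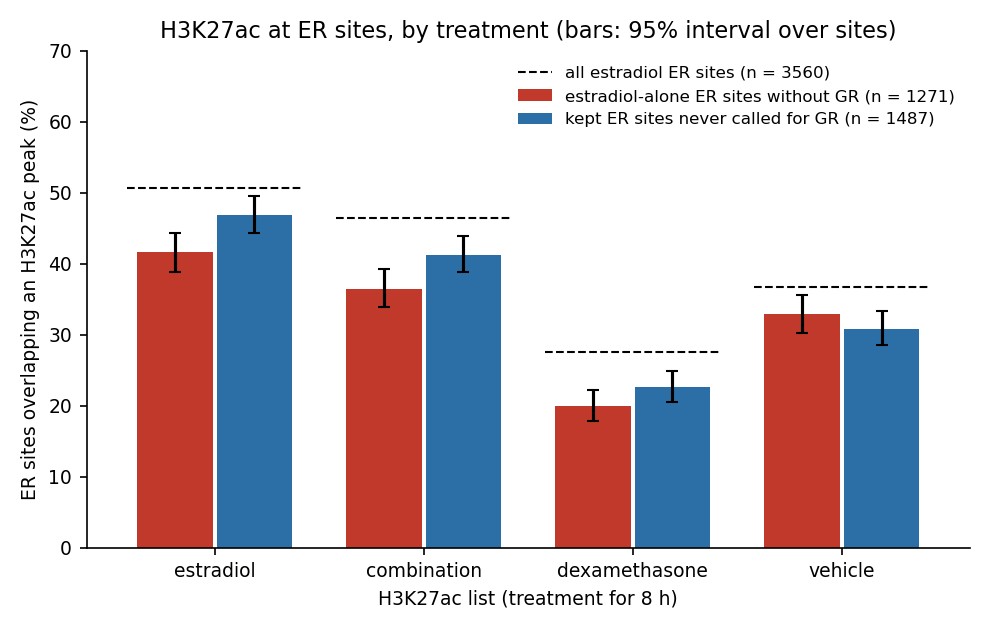
Share (%) of ER sites overlapping an H3K27ac peak in each of the 4 lists, for 1271 estradiol-alone ER sites without GR and 1487 kept ER sites never called for GR, with 95% intervals over sites as error bars and the share over all 3560 estradiol ER sites as dashed lines. The estradiol-alone shares lie below the dashed line in every list, from 41.6% against 50.6% with estradiol to 32.9% against 36.8% with vehicle.

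Since the sets differ in ER strength, the shares were compared within strength bands. In the weakest band, estradiol H3K27ac was present at 43.5% (39.6 to 47.5) of estradiol-alone, GR-free sites and 36.5% (28.1 to 45.6) of kept, GR-free sites. In the second band the shares were 38.8% (34.4 to 43.3) and 42.7% (37.1 to 48.4), and in the third 44.7% (36.9 to 52.7) and 41.5% (37.3 to 45.7), in the same order of sets. The intervals overlap in all 3 of these bands, and the sign of the difference is not the same in them. In the strongest band only 1 of 10 estradiol-alone, GR-free sites (10%, 0.253 to 44.5) had estradiol H3K27ac, against 289 of 495 kept ones (58.4%, 53.9 to 62.8).

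The average over bands depended on those 10 sites. Over the 4 bands with equal weight, the difference in estradiol H3K27ac was −10.5 points (−17.4 to −3.61), and over the 3 weaker bands, which hold the other 1261 sites, it was 2.098 points (−2.74 to 6.94). For combination H3K27ac the corresponding differences were −10.9 (−17.7 to −3.97) and −2.04 (−6.83 to 2.74). For vehicle H3K27ac they were −3.72 (−10.5 to 3.08) and 2.55 (−2.02 to 7.13). Outside the strongest band, the intervals of the estradiol, combination and vehicle differences hold 0, so no difference was detectable at this number of sites.

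Dexamethasone H3K27ac, whose band difference was chosen after seeing the data, was lower at estradiol-alone, GR-free sites in each strength band. The shares were 21.7% (18.5 to 25.1) at these sites and 27.8% (20.2 to 36.5) at kept, GR-free sites in the weakest band. In the second band they were 18.4% (15.0 to 22.2) and 25.5% (20.8 to 30.7), and in the third 18.6% (12.9 to 25.5) and 23.2% (19.7 to 26.9). In the strongest band they were 1 of 10 sites and 19.0% (15.6 to 22.7). The intervals overlap within each single band. The difference over the 4 bands was −6.68 points (−13.3 to −0.05) and over the 3 weaker bands −5.91 (−10.1 to −1.73). With summits within 100 bp as the rule for shared receptor peaks, the 4-band difference was −2.28 (−9.17 to 4.62). Without the GR lists in the rule it was −13.7 (−20.2 to −7.13), but both sets then take in sites with GR. That difference sets 1360 estradiol-alone sites against all 2200 kept sites. Of the 713 kept sites with GR, 47.5% (43.8 to 51.3) had dexamethasone H3K27ac.

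**Figure D3:**
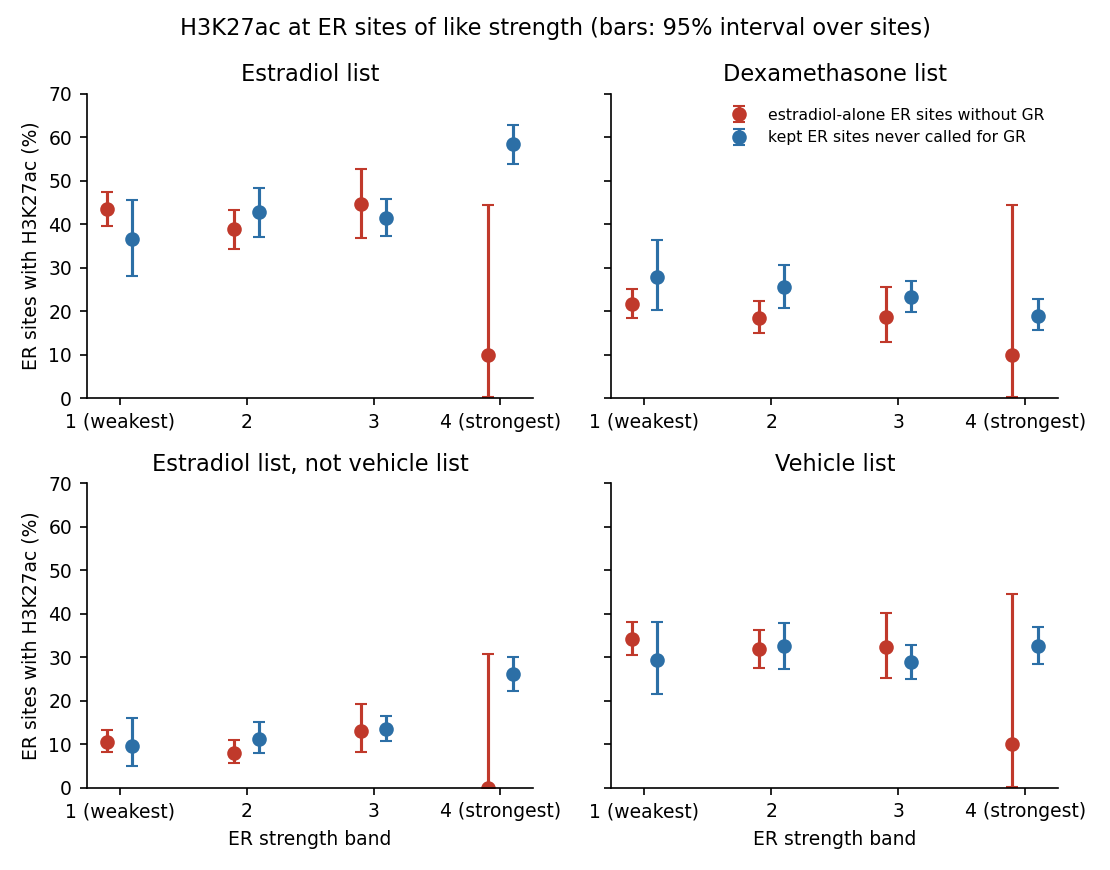
Share (%) of ER sites with H3K27ac in each ER strength band, for estradiol-alone ER sites without GR and kept ER sites never called for GR, with 95% intervals over sites; the panels show the estradiol list, the dexamethasone list, presence with estradiol and not with vehicle, and the vehicle list. The sets lie close together in the 3 weaker bands of the estradiol panel (38.8% to 44.7% against 36.5% to 42.7%) and apart in the strongest, where the estradiol-alone set has 10 sites.

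Over the 4 lists together, the estradiol-alone, GR-free sites fell mainly into 3 presence patterns. No list held H3K27ac at 697 of them (54.8%, 52.1 to 57.6; all ER sites 45.2%), all 4 lists did at 237 (18.6%, 16.5 to 20.9; all ER sites 25.4%), and all but the dexamethasone list at 139 (10.9%, 9.27 to 12.8; all ER sites 8.82%). The estradiol list alone held it at 68 (5.35%, 4.18 to 6.73; all ER sites 5.87%), the estradiol and combination lists alone at 54 (4.25%, 3.21 to 5.51; all ER sites 8.03%), and the estradiol and vehicle lists alone at 26 (2.05%, 1.34 to 2.98; all ER sites 1.52%). The remaining 50 sites were spread over 8 patterns, of which the combination list alone was the most frequent with 22 (1.73%; all ER sites 2.53%). At kept, GR-free sites the all-but-dexamethasone pattern was less frequent in these lists (118 of 1487, 7.94%, 6.61 to 9.43), and the estradiol and combination pattern more frequent (122, 8.20%, 6.86 to 9.72).

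Sites marked in all 4 lists lay in broad and strong acetylation. Their estradiol H3K27ac peaks had a median width of 3749 bp and a median strength percentile of 95.9 within the estradiol list, where the median peak width was 650 bp. The 3 of these with the strongest ER were chr3:50204843-50204986 (H3K27ac fold enrichment 32.9 with estradiol, 20.2 with the combination, 10.7 with dexamethasone and 19.4 with vehicle), chr9:132945618-132945765 (17.4, 11.97, 5.68 and 9.62 in the same order) and chr10:80673351-80673709 (31.3, 22.6, 13.9 and 15.3). These fold enrichments are the authors' and were scaled within each list, so they are not compared across lists. At the 139 sites missing from the dexamethasone list only, the median strength percentile was 85.7 in the estradiol list, 72.6 in the combination list and 73.6 in the vehicle list.

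Acetylation seen with estradiol and not with vehicle was less frequent at estradiol-alone, GR-free sites than over all ER sites. It was present at 125 of the 1271 (9.83%, 8.25 to 11.6), against 14.7% of all estradiol ER sites and 250 of 1487 kept, GR-free sites (16.8%, 14.9 to 18.8). The opposite change, vehicle H3K27ac absent with estradiol, was found at 14 sites (1.101%, 0.603 to 1.84), an interval that holds the share over all ER sites, 0.871%. Within strength bands the intervals of the sets overlapped throughout, and the largest gap was in the strongest band, where the estradiol-alone set has 10 sites. The shares were 10.5% (8.22 to 13.2) at estradiol-alone, GR-free sites and 9.52% (5.02 to 16.0) at kept, GR-free sites in the weakest band, 8.05% (5.76 to 10.9) and 11.1% (7.89 to 15.2) in the second, and 13.0% (8.26 to 19.2) and 13.4% (10.7 to 16.5) in the third. In the strongest band 0 of 10 estradiol-alone, GR-free sites (up to 30.8%) and 129 of 495 kept ones (26.1%, 22.2 to 30.2) gained it. The difference was −7.13 points (−12.1 to −2.15) over the 4 bands and −0.82 (−3.95 to 2.31) over the 3 weaker ones.

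Of the 125 sites with estradiol-gained H3K27ac, 57 (45.6%, 36.7 to 54.7) also had it with the combination, against 59.7% of all ER sites of this kind. With dexamethasone 3 (2.40%, 0.498 to 6.85) also had it, and the share over all such ER sites, 5.53%, lies inside this interval. The corresponding shares with the combination were 53.6% (47.2 to 59.9) at kept, GR-free sites and 83.3% (76.2 to 89.02) at the 713 kept sites that carried GR, where 144 gained H3K27ac with estradiol. With ER lists of equal length, 24.4% (12.4 to 40.3) of the gained estradiol-alone, GR-free sites were in the combination list. The share was higher with H3K27ac lists of equal length (57.9%, 48.0 to 67.4) and with their stronger 50% (56.5%, 47.3 to 65.3). With H3K27ac counted within 1 kb it was 64.4% (56.0 to 72.1). Under the other settings it stayed within the interval given above. The share over all ER sites was not recomputed under these settings.

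Gained H3K27ac peaks that were called with estradiol alone had a lower median strength than those shared with the combination. Peak calls define both patterns, and a weaker peak is less readily called in another list. The contrast therefore partly follows from the sorting and is given as a description. At the 68 sites with H3K27ac in the estradiol list alone, the median strength percentile in that list was 42.03 and the median width 826 bp. At the 54 sites shared by the estradiol and combination lists alone, it was 69.4 with a width of 1463 bp. The strongest ER sites of the estradiol-only pattern were chr12:57482507-57482642 (ER rank 980, estradiol H3K27ac fold enrichment 22.7), chr7:20837864-20837990 (rank 1024, 15.9) and chr13:114899908-114900102 (rank 1250, 8.47). Those of the estradiol and combination pattern were chr2:131130048-131130172 (rank 1134, 18.6 with estradiol and 8.53 with the combination), chr10:51572383-51572669 (rank 1387, 13.9 and 9.40) and chr10:35737790-35737934 (rank 1421, 9.38 and 7.59).

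Of the H3K27ac already present with vehicle, a smaller share was also called with dexamethasone than with estradiol or the combination. Of the 418 estradiol-alone, GR-free sites with vehicle H3K27ac, 404 (96.7%, 94.4 to 98.2; all ER sites 97.6%) had it with estradiol and 381 (91.1%, 88.0 to 93.7; all ER sites 94.3%) with the combination. With dexamethasone 242 (57.9%, 53.0 to 62.7) had it, against 70.5% of all such ER sites, 67.5% (63.0 to 71.8) of kept, GR-free ones and 85.8% (81.9 to 89.2) of kept sites with GR. Over all 21120 vehicle H3K27ac peaks, 46.7% (46.0 to 47.3) overlapped a dexamethasone peak. That share counts whole peaks and not ER sites. The vehicle peaks at the 418 sites were also wider, with a median of 1708.5 bp against 547 bp in the list, so the shares are not like for like. Dexamethasone H3K27ac without estradiol H3K27ac was present at 12 of the 1271 sites (0.944%), close to the share over all ER sites (1.12%). The strongest ER sites among them were chrX:10993039-10993267, chr18:25329287-25329389 and chr4:158596063-158596238, with dexamethasone H3K27ac fold enrichments of 13.5, 7.36 and 17.0.

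Merging the H3K27ac peaks of the 4 lists gave regions, of which gained ones were less frequent where the ER sites were estradiol-alone and GR-free than where they were kept and GR-free. Regions whose ER sites were all estradiol-alone and GR-free numbered 409, and 63 of them (15.4%, 12.04 to 19.3) were present with estradiol and absent with vehicle, against 21.8% of all 27111 regions. Regions whose ER sites were all kept and GR-free numbered 603, and 202 of them (33.5%, 29.7 to 37.4) were gained. The median widths of these 2 kinds of region were alike, at 1878 and 1814 bp, but all regions had a median of 662 bp. The part of width in the shares was not tested. All 4 lists held 60.4% (55.5 to 65.2) of the regions with estradiol-alone, GR-free sites and 49.3% (45.2 to 53.3) of those with kept, GR-free sites, against 27.7% of all regions. Of the gained regions, 41 of 63 (65.1%, 52.0 to 76.7) and 154 of 202 (76.2%, 69.8 to 81.9) were also in the combination list, in the same order of regions, compared with 32.8% of all gained regions, whose median width was 418 bp against 682 and 949.5 bp in these. ER strength was not matched between the region kinds.

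The distance to kept ER sites was broad. Summit to summit, the nearest kept site was a median of 113 kb (96.5 to 144) from an estradiol-alone, GR-free site, with 25% within 13.3 kb and 25% beyond 575 kb. For kept, GR-free sites the median to the nearest other kept site was 78.4 kb (61.8 to 98.0), and for kept sites with GR 19.1 kb (13.2 to 24.9). Neighbouring estradiol ER peaks under the same combination ER peak all count as kept, and a member cannot lie under such a peak. Comparisons of distance between members and kept sites, also within strength bands, therefore partly follow from the rule. Within 10 kb of a kept site lay 288 of the 1271 (22.7%, 20.4 to 25.1; all ER sites 28.7%), compared with 26.6% (24.4 to 29.0) of kept, GR-free sites and 42.2% (38.6 to 45.9) of kept sites with GR. Of the 89 estradiol-alone sites that were left out for a GR call, 41.6% (31.2 to 52.5) lay within 10 kb. The median for the estradiol-alone, GR-free sites was 209 kb (153 to 267) with ER lists of equal length, which leaves fewer kept sites to measure to, and 224 kb (126 to 277) for the 171 of them in the stronger 50% of the list.

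**Figure D4:**
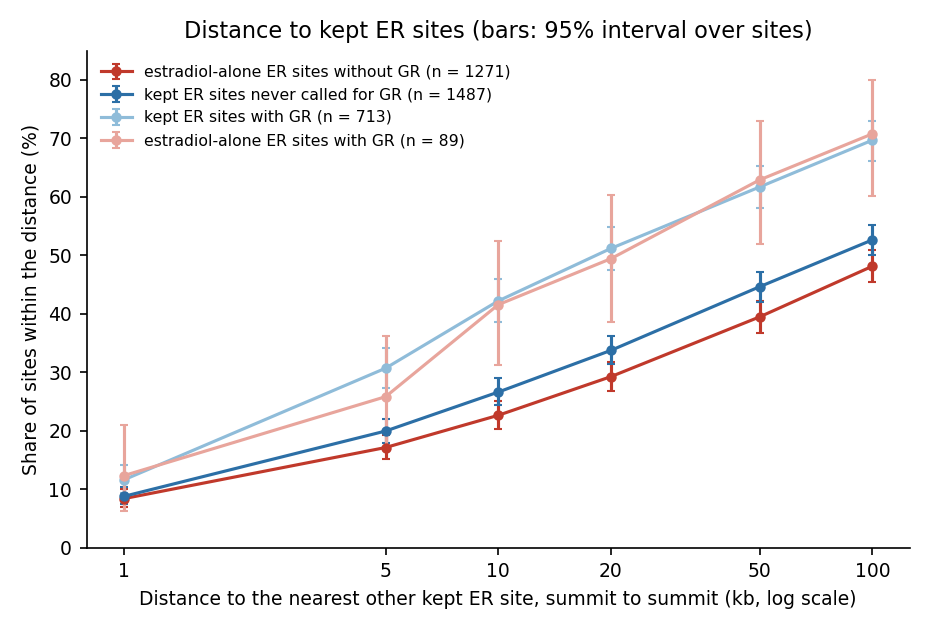
Share (%) of sites with another kept ER site within a given summit-to-summit distance (x axis, kb, log scale), for the 4 classes of estradiol ER sites, with 95% intervals over sites. Estradiol-alone ER sites without GR lie lowest at each distance shown. They have 8.42% at 1 kb and 48.2% at 100 kb, beside 8.81% and 52.7% for kept ER sites never called for GR.

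Within strength bands the share within 10 kb was lower at estradiol-alone, GR-free sites in each band, with overlapping intervals in most. It was 24.5% (21.2 to 28.1) at these sites and 28.6% (20.9 to 37.3) at kept, GR-free sites in the weakest band. In the second band it was 20.8% (17.2 to 24.7) and 30.3% (25.2 to 35.7), the one band where the intervals were apart. In the third it was 22.4% (16.2 to 29.6) and 24.3% (20.8 to 28.1). The kept sites nearest to the 288 members with one within 10 kb were 251 distinct sites, counted here once per member. Their median −log10 q was 37.5, close to that of all kept sites (35.7). For 97 of the 288 members (33.7%) the nearest kept site carried GR, where 32.4% of all kept sites did.

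In all 4 lists, acetylation was less frequent at sites farther from kept ER sites. Of the 107 estradiol-alone, GR-free sites within 1 kb of a kept site, 83.2% (74.7 to 89.7) had estradiol H3K27ac, 77.6% (68.5 to 85.1) combination H3K27ac, 45.8% (36.1 to 55.7) dexamethasone H3K27ac and 65.4% (55.6 to 74.4) vehicle H3K27ac. At 1 to 10 kb the shares were 62.4% (54.9 to 69.5), 56.4% (48.8 to 63.7), 34.3% (27.4 to 41.7) and 48.6% (41.1 to 56.1) in the same order of lists. Of the 659 sites over 100 kb away, the shares were 28.1% (24.7 to 31.7), 24.1% (20.9 to 27.6), 11.5% (9.19 to 14.2) and 22.5% (19.3 to 25.8). The ER strength of the sites was alike over these distances, with medians of −log10 q between 15.1 and 16.6. Kept, GR-free sites had estradiol H3K27ac at 76.3% (68.1 to 83.3) within 1 kb of another kept site and at 32.8% (29.4 to 36.4) beyond 100 kb, so a lower share at a distance was also seen there.

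**Figure D5:**
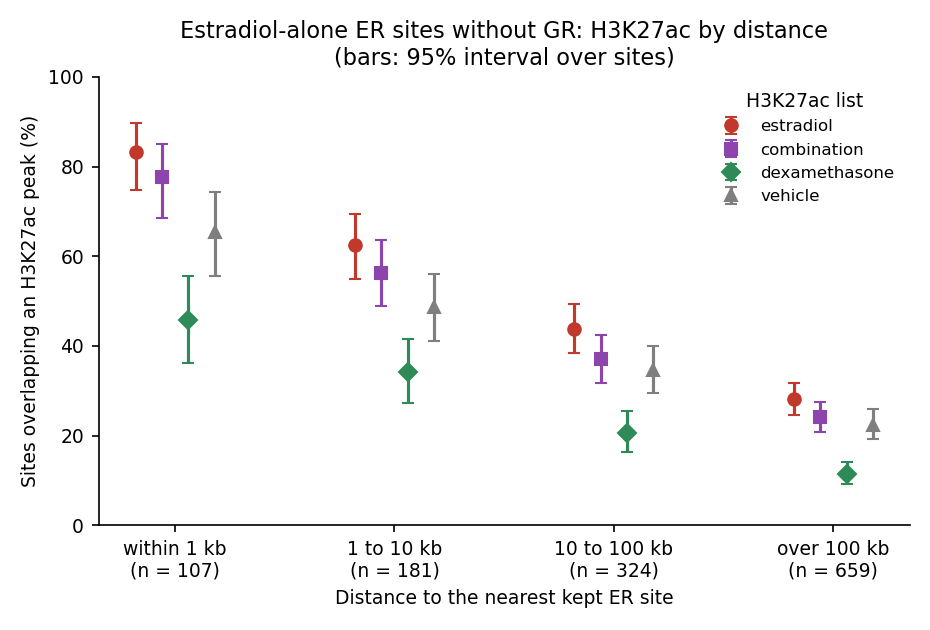
Share (%) of the 1271 estradiol-alone ER sites without GR that overlap an H3K27ac peak, by distance to the nearest kept ER site and by H3K27ac list, with 95% intervals over sites. The estradiol share is 83.2% within 1 kb and 28.1% beyond 100 kb, and the dexamethasone share 45.8% and 11.5%.

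A minority of the marked sites shared an H3K27ac region with a kept site. Of the 574 estradiol-alone, GR-free sites with H3K27ac in any list, 141 (24.6%, 21.1 to 28.3) lay in a merged region that also held a kept ER site, and the figure for kept, GR-free sites and another kept site was 24.9% (21.8 to 28.1). Leaving out the 107 sites within 1 kb of a kept site, the H3K27ac shares were 37.8% with estradiol, 32.7% with the combination, 17.6% with dexamethasone and 29.9% with vehicle.

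Groups of members were small. Joining members whose summits followed within 20 kb, 1004 of the 1271 (79.0%) had no other member as such a neighbour, 196 formed pairs, and 71 fell into groups of 3 to 5. A kept ER site lay within 20 kb of 372 of the 1271 (29.3%). The largest groups had 5 members each. One, on chromosome 16 from 16240430 to 16245781, spanned 5.35 kb and also held 2 kept ER sites and a GR site with the combination and with dexamethasone; 4 of its 5 members had estradiol H3K27ac, 4 combination, 2 dexamethasone and 2 vehicle H3K27ac. The other, on chromosome 5 from 139018029 to 139044122, spanned 26.1 kb with 1 kept ER site and 1 combination GR site; its members had H3K27ac at 5 with estradiol, 4 with the combination, 0 with dexamethasone and 5 with vehicle. The members farthest from any kept site were chrX:92610059-92610148, chrX:27692712-27692872 and chr5:310742-310859, between 11105 and 11608 kb away. Kept sites leave out ER peaks called with the combination only. Counting every combination ER peak, the nearest lay 36017 bases from chrX:27692712-27692872 and 6.87e+06 bases from chrX:92610059-92610148. For chr5:310742-310859 it lay 1.11e+07 bases away.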

How the data were processed

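Peak lists of single ChIP-seq libraries were analysed for 8 of the 11 samples of the series. The submitters' processing notes name Bowtie 1.1.2 and hg19. Per the file headers, MACS2 2.1.0.20140616 called peaks over a control with a p threshold of 1e-10, 1 tag kept per position and the larger library scaled to the smaller. The H3K27ac times follow the samples' treatment labels (8 h), while a protocol text common to all samples gives 1 h. The deposited pileup is a signal (fragment coverage at the summit). The deposited −log10 p and −log10 q values and the fold enrichment, a ratio to local control, are the authors'. They were used only within a list. Which control served which list is not given in the sources used here.

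Overlap meant at least 1 shared bp. Distances ran between summits on 1 chromosome. Strength bands were 4 near-equal parts of the estradiol ER list by −log10 q, with ties kept together. Shares carry exact Clopper-Pearson 95% intervals, medians order-statistic intervals, and differences of shares normal-approximation intervals over sites. The overlap code (Python 3.11.15) was tested on simulated intervals. The sites and tests were chosen with earlier results of these data known. Sites named by coordinates follow fixed ranks within the set, with chromosome 8 left out: the strongest and weakest, the strongest of each H3K27ac pattern, those nearest the rule's border, those farthest from kept sites, and the largest groups. Sequences, motifs and gene names were not used here, as no hg19 genome or annotation was used.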

Additional observations from a re-analysis of the deposited data

How the results depend on the processing

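No paired analysis was possible because each group holds 1 library and the labels give no replicate numbers. Of 138 values recomputed under 16 settings for 14 results, 86 stayed within the interval of the reported value (for the site count, within 1.5 times it). Chosen after seeing the data were the settings without the strongest band, without the dexamethasone H3K27ac list and without sites within 1 kb of a kept site, and the band differences for dexamethasone and vehicle H3K27ac. The band difference for combination H3K27ac was not planned either. Where a value moved, the cause was not tested beyond what the setting changes by construction. H3K27ac shares below are in the order estradiol, combination, dexamethasone, vehicle, no list.

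With receptor peaks within 1 kb counted as shared, the shares were 36.8%, 31.7%, 16.5%, 28.9% and 59.6%, sites within 10 kb of a kept site 14.6% and the median distance 159 kb. With H3K27ac counted within 1 kb, they were 54.2%, 50.0%, 34.0%, 43.4% and 43.1%, and 64.4% of gained sites were in the combination list. With H3K27ac lists of equal length, they were 37.1% (estradiol), 33.7% (combination), 30.1% (vehicle) and 59.2% (no list), with 57.9% of gained sites in the combination list. With H3K27ac lists limited to their stronger 50%, they were 35.0%, 30.8%, 16.8%, 26.1% and 61.8%, with 56.5% of gained sites in the combination list. With the ER summit inside the H3K27ac peak, they were 38.2%, 31.55%, 16.1%, 28.9% and 58.7%. Without sites within 1 kb of a kept site, they were 37.8%, 32.7%, 17.6%, 29.9% and 58.7%.

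With ER lists of equal length, 446 sites remained, the combination share was 33.2%, 24.4% of gained sites were in the combination list, 20.2% lay within 10 kb of a kept site and the median distance was 209 kb. Members in the stronger 50% numbered 171, with a gain at 12.3% and a median distance of 224 kb. Without the GR lists in the rule, the dexamethasone share was 22.4%. The dexamethasone band difference was then −13.7 points, measured against all 2200 kept sites, including those with GR.

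The band difference for estradiol H3K27ac, −10.5 points as reported, was −2.53 (−9.91 to 4.84) with summits within 100 bp and −19.9 (−43.6 to 3.79) with equal ER lists. It was −22.6 (−35.1 to −10.0) in the stronger 50% and −2.93 (−11.5 to 5.60) with H3K27ac within 1 kb. The stronger 50% spans only the third and strongest bands, so the 10 members of the strongest weigh as much as the 161 of the third. The estradiol difference turned to 2.098 without the strongest band, which holds 10 members. For gained H3K27ac, −7.13 as reported, the difference was −13.2 (−22.5 to −3.93) in the stronger 50%, weighted in the same way. It was −0.70 with H3K27ac within 1 kb and −0.82 without the strongest band. The number of sites limits these differences, and neighbouring sites and tags are not independent.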

Other observations

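Estradiol-alone, GR-free sites made up between 30.2% (chromosome 9) and 50% (chromosome 19) of the estradiol ER sites of a chromosome, with 64 of 128 on chromosome 19 (41.0 to 58.96) and 58 of 126 on chromosome 16 (46.0%, 37.1 to 55.1), against 35.7% over the genome. The weakest strength band held 28.9% of the ER sites of chromosome 19 and 19.8% of those of chromosome 16. The share of these sites with estradiol H3K27ac ranged from 25.5% (chromosome 7, 55 sites) to 57.7% (chromosome 20, 26 sites).

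Among the estradiol-alone, GR-free sites, the ER pileup was higher and the fold enrichment lower where H3K27ac was present. The 574 sites with H3K27ac in any list had a median pileup of 19.2 and a median fold enrichment of 10.6, and the 697 sites with none had 15.5 and 11.5. The local control background implied by these values (pileup plus 1, divided by fold enrichment, minus 1) had a median of 1.00 at sites with H3K27ac and 0.270 at sites without. Kept, GR-free sites had 0.945 with H3K27ac and 0.270 without.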
